A study of Rattus norvegicus with 8 samples.

Results

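Nuclei of rat nodose ganglia in which at least 2 of the 3 genes Ppm1j, Adgrg2 and Vwc2l were detected are described here. Detection meant 1 or more unique molecular identifiers (UMIs, each standing for 1 captured transcript) per gene, and a nucleus with more than 1 UMI of Pcdh15 was not taken. The rule found 771 of 36741 nuclei, and 696 of these lay among the 26594 nuclei of neuron-like clusters. The members were chosen by the measured counts of Ppm1j, Adgrg2, Vwc2l and Pcdh15, so the levels of these genes are given as a description. Tmem233 and Gabrg3 had been named together with the rule genes from these nuclei and are also described with no test. The donors were untreated Long Evans rats of 8 weeks, 18 male and 18 female by label. Each pool joined the ganglia of 1 side from 6 rats, and there were 3 pools for each of male left (ML1 to ML3), male right (MR1 to MR3), female left (FL1 to FL3) and female right (FR1 to FR3). With 18 rats per sex, both sides would draw on the same animals, so left and right pools are not independent, and no source pairs single pools. The pool was the replicate, and the 8 sequenced sublibraries, which each held nuclei of every pool, served only as technical repeats.

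The nodose ganglion holds the cell bodies of vagal sensory neurons, which report stretch, chemical signals and hormones from the heart, airways and gut to the brainstem. In dissection it is joined to the jugular ganglion, whose neurons are of neural crest origin and express Prdm12, while placode-derived nodose neurons express P2rx2 and serotonin receptors. Ppm1j encodes a serine/threonine phosphatase of the PPM family, Adgrg2 an adhesion G protein-coupled receptor, and Vwc2l a secreted protein with von Willebrand factor C domains. Tmem233 belongs to the dispanin family of small membrane proteins, and Gabrg3 encodes a subunit of the GABA-A receptor, a chloride channel opened by the inhibitory transmitter GABA. Pcdh15, the gene that the rule kept low, encodes a protocadherin known from the tip links of hair cells. Piezo2, a mechanically gated cation channel, carries touch, proprioception and airway stretch signals.

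The sequences just upstream of the 3 rule genes are shown because detection of these genes, with the limit on Pcdh15, chose the nuclei. They are the 250 bases before each RefSeq start in the GRCr8 assembly, which is not the build of the deposited counts. Tmem233 had no entry in the table used. Capitals mark matches on either strand to an E-box (CANNTG), a homeodomain-type motif (TAATTA), a GC box (GGGCGG) or a TATA box (TATAAA).
Ppm1j, chr2:194966964-194967213, plus strand: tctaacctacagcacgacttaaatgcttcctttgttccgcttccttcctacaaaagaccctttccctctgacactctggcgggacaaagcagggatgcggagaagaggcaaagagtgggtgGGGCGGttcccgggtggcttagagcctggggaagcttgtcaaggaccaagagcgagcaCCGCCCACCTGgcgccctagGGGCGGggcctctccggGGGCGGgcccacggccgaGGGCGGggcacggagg
Adgrg2, chrX:38179836-38180085, minus strand: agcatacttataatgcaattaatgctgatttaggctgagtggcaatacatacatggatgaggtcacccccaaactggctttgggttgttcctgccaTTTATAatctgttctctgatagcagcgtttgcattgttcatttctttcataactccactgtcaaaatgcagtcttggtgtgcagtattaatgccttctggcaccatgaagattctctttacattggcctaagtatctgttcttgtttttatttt
Vwc2l, chr9:79702704-79702953, plus strand: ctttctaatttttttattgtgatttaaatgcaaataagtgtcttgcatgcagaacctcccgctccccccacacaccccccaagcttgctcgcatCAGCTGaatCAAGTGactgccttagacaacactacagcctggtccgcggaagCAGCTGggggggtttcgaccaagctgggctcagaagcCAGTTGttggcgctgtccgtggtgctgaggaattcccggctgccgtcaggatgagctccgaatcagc
The Ppm1j stretch was 64% G and C and held 5 GC boxes, of which the one starting 71 bases before the start overlapped its only E-box by 1 base. The Adgrg2 stretch was 38.8% G and C and held a single marked motif, a TATA box match 154 bases before the start. The Vwc2l stretch was 54% G and C and held 4 E-boxes. Of 33469 rat stretches of the same length, 65.54% held an E-box, 30.47% a GC box, 12.93% a TATA box match and 4.858% the homeodomain-type motif. No motif was marked in all 3 stretches, and a match is a match of letters only.

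The deposited matrix held 139965360 UMIs over 30560 genes, with a median of 2680 UMIs per nucleus, and the chosen nuclei held 5536819 of them. Full barcodes were unique, but 3808 nuclei carried a cell barcode also used in another sublibrary, 4 chosen nuclei among them sharing one with another chosen nucleus. Transcripts of Y-linked genes went against the sex label in 2 pools, ML1 with 2.88 CPM (UMIs scaled to a total of 1e6) and FL1 with 88.6 CPM, where the other pools labelled male had 84.4 to 91.3 and those labelled female 2.73 to 3.95. Sex is therefore given as labelled, and results by sex and side are repeated without these pools. No caller removed doublets, since Scrublet marked only 2 nuclei.

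The chosen nuclei made up 5.55% of neuron-like nuclei in ML1, 2.28% in ML2 and 1.19% in ML3. On the right of the same labelled sex the shares were 2.87% in MR1, 2.92% in MR2 and 2.81% in MR3. Pools labelled female had 3.17% in FL1, 3.40% in FL2 and 2.32% in FL3 on the left, and 2.77% in FR1, 1.86% in FR2 and 2.77% in FR3 on the right. ML1 was the highest and ML3 the lowest of all pools, both from the left side, and the right pools other than FR2 lay within a narrow band. The numbers behind these shares ran from 18 nuclei in ML3 to 146 in ML1. All 771 nuclei were counted here over the neuron-like nuclei of the pool. Across sublibraries the share was 2.41% to 3.29%.

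**Figure D1:**
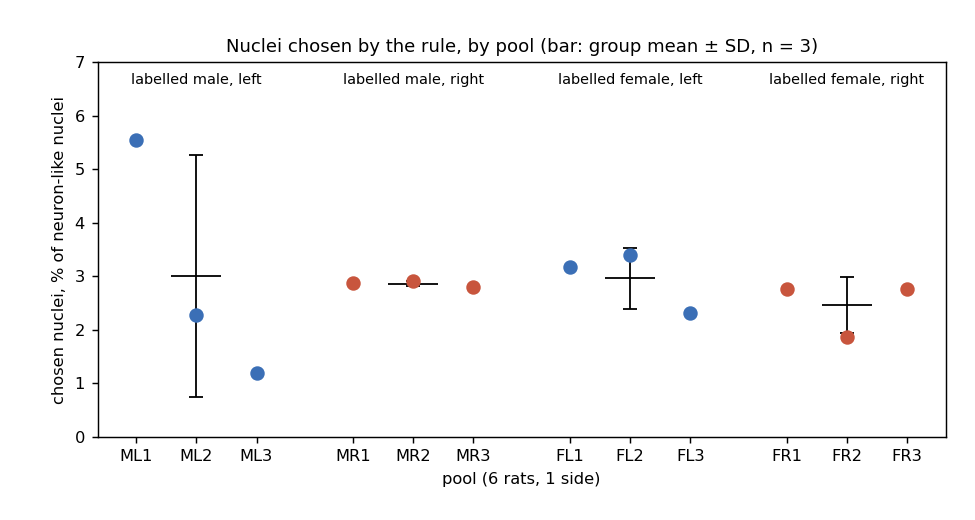
Nuclei chosen by the rule as a percentage of the neuron-like nuclei of each pool, with the mean and SD of the 3 pools of each labelled sex and side. ML1 at 5.55% and ML3 at 1.19% are the extremes, while 5 of the 6 right pools lie between 2.77% and 2.92%.

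Neither side nor labelled sex was tied to a detectable difference in this share. Left pools averaged 2.99% ± 1.48 and right pools 2.67% ± 0.397 (SD, n = 6 pools each), a right minus left difference of -0.319 percentage points (exact permutation test within labelled sex, two-sided, p = 0.73). Pools labelled male averaged 2.94% ± 1.44 and pools labelled female 2.72% ± 0.559, a female minus male difference of -0.219 points (exact permutation test within side, p = 0.74). Adjusted over these 2 tests, both exact permutation p-values were 0.74, and the smallest p that the 400 relabellings allow is 0.005. The test by labelled sex, like the gene test by labelled sex below, counted left and right pools as separate replicates although they would share rats. Without ML1 the side difference was 0.194 points and the sex difference 0.304, so 1 pool set both directions. Without ML3 they were -0.678 and -0.568 points.

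Each pair of rule genes contributed. Ppm1j and Adgrg2 were detected together, without Vwc2l, in 208 nuclei, Ppm1j and Vwc2l in 223, Adgrg2 and Vwc2l in 177, and all 3 genes in 163. Of the 771 nuclei, 695 had no UMI of Pcdh15 and 76 had 1. Just outside the rule lay 3093 nuclei with exactly 1 of the 3 genes and 34 nuclei with 2 or 3 of them but exactly 2 UMIs of Pcdh15. Gabrg3 stood at 206 CPM in neuron-like nuclei with all 3 genes, 110 CPM with exactly 2, 35 CPM with exactly 1 and 7.99 CPM with none. Piezo2 followed the same order, at 1624, 1329, 636 and 160 CPM. Tmem233 did not, at 446 CPM with all 3 genes, 502 CPM with exactly 2, 349 CPM with 1 and 96.8 CPM with none.

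A nucleus with both other rule genes often held the remaining one. Among neuron-like nuclei with Adgrg2 and Vwc2l and at most 1 UMI of Pcdh15, Ppm1j was detected in 49.6% ± 19.6 (SD over 12 pools, 298 nuclei), against 3.32% of nuclei with neither gene. Adgrg2 was detected in 39.6% ± 9.07 of 366 nuclei with Ppm1j and Vwc2l, against 2.58%. Vwc2l was detected in 42.3% ± 11.6 of 342 nuclei with Ppm1j and Adgrg2, against 4.61%. The share was higher in 12 of 12 pools for each gene. After each nucleus was thinned to 2000 UMIs the shares were 31.8% ± 26.5, 39.7% ± 28.1 and 31.9% ± 18.3 (SD over pools). Nuclei with neither gene then had 2.39%, 2.28% and 3.29%. The thinned share was higher in 10 of 12 pools for Ppm1j and Adgrg2 and in 10 of 11 for Vwc2l. The smallest pools held only 1, 2 and 0 nuclei with both other genes. The trio had been picked from these nuclei, so this is a description. In the remaining nuclei of the satellite glia-like cluster 4, Ppm1j was detected in 2.66%, Adgrg2 in 5.92% and Vwc2l in 2.92%. Other neuron-like nuclei had 3.54%, 3.28% and 4.57%. The cluster 4 nuclei also held neuronal transcripts, with Nefh at 793 CPM and P2rx3 at 309 CPM, so they are no neuron-free background.

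The chosen nuclei were deeper than their neighbours. Their median was 4938 UMIs in neuron-like clusters against 2999 in the other neuron-like nuclei, and it was higher in 12 of 12 pools. In cluster 13, which held the largest share of them, the rule took 10.1% of nuclei in the lowest of 3 equal classes by UMIs, 24.2% in the middle and 48.8% in the highest. In cluster 21 it took 11.7%, 30.3% and 42.1%. The rule therefore picked the better-sampled nuclei of a cluster, and comparisons below are repeated after thinning to 2000 UMIs. Thinning left out 13068 shallower nuclei of the data set, 65 chosen nuclei among them. The rule was applied anew to the thinned counts, which left 263 chosen nuclei. Nuclei that no longer met it counted as other nuclei. The thinned comparisons thus differ from the main ones in their groups as well as in depth.

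The nuclei did not form 1 cell type. When all nuclei were clustered without the 4 rule genes, cluster 13 held 271 of the 771, or 35.1%, and cluster 21 held 122, or 15.8%. Cluster 8 held 72, cluster 26 held 57, cluster 24 held 42, cluster 15 held 40 and cluster 12 held 37, while 51 lay in the satellite glia-like cluster 4 and 79 in the remaining clusters. The label of a single type of vagal neuron is therefore not borne out, and the nuclei are named here by their rule. Nor did the rule take in the whole of any of these clusters: chosen nuclei were 27.7% of cluster 13, 28% of cluster 21 and 28.1% of cluster 26.

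Cluster 13 was led by Tmem233, Spon1, Marchf1, Tacr1 and Grm3. Its chosen nuclei had Tmem233 at 789 CPM and Gabrg3 at 260 CPM, against 127 and 11.9 CPM in other neuron-like nuclei. The remaining nuclei of cluster 13 had more Tmem233, at 1647 CPM, and less Gabrg3, at 92.5 CPM. Spon1 stood at 949 CPM in them against 482 CPM in the chosen nuclei. In the chosen nuclei of cluster 13, Enpp2, which encodes the enzyme autotaxin that makes lysophosphatidic acid, stood at 948 CPM. Tacr1, the substance P receptor, stood at 237 CPM in these chosen nuclei, and Grm3, a metabotropic glutamate receptor, at 147 CPM. Piezo2 reached 1676 CPM in them and Scn10a, a sodium channel of sensory neurons, 1480 CPM, while the jugular gene Prdm12 stood at 0.646 CPM. Cluster 21 was led by Tafa1, Ccdc172, Ntm and Meis2. Its chosen nuclei had Piezo2 at 1845 CPM, Gabrg3 at 170 CPM and Vwc2l at 525 CPM. Tafa1, which encodes a secreted chemokine-like protein, stood at 1286 CPM, Ntrk3, the neurotrophin-3 receptor, at 614 CPM and Prdm12 at 57.9 CPM. Gabrg3 was thus high in both clusters, while Tmem233 and Enpp2 were higher in cluster 13 and Tafa1 in cluster 21.

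Cluster 8 carried peptide genes and cluster 26 a potassium channel gene. In the chosen nuclei of cluster 8, Calca, which encodes the peptide CGRP, stood at 246 CPM, Tac1, which encodes substance P, at 314 CPM and Prdm12 at 116 CPM. Gabrg3 there was 19 CPM, near the level of other neuron-like nuclei, although Tmem233 reached 867 CPM. In cluster 26 Kcnj6, an inwardly rectifying potassium channel gene, stood at 1240 CPM, Cdh9 at 571 CPM, Prdm12 at 156 CPM and Piezo2 at 2316 CPM, with Gabrg3 at 16.4 CPM. The chosen nuclei of cluster 15 held Ndst4 at 201 CPM and those of cluster 12 held Brinp3 at 945 CPM, and both had low Scn10a, at 103 and 168 CPM. The remaining nuclei of the same clusters had several of these genes at similar or higher levels. Calca was at 339 CPM and Tac1 at 408 CPM in cluster 8, and Kcnj6 at 1247 CPM in cluster 26. Tafa1 was at 1373 CPM in cluster 21 and Brinp3 at 955 CPM in cluster 12. Lower in the remaining nuclei of cluster 26 were Cdh9 at 469 CPM, Prdm12 at 119 CPM and Gabrg3 at 7.91 CPM. Gabrg3 was also lower in those of cluster 8, at 13.8 CPM.

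The 51 chosen nuclei of cluster 4 and the 42 of cluster 24 were deeper and held more of the glial transcript Apoe than the chosen nuclei of the other clusters named above. Those of cluster 4 had a median of 11256 UMIs, with 3400 in the remaining nuclei of that cluster, and Apoe, a lipoprotein gene of satellite glia, at 1288 CPM. Those of cluster 24 had a median of 14955 UMIs and Apoe at 859 CPM, against 33.6 CPM in the chosen nuclei of cluster 13. The remaining nuclei had Apoe at 1599 CPM in cluster 4 and 589 CPM in cluster 24. In the 79 chosen nuclei of the remaining clusters Apoe stood at 566 CPM. Piezo2 was 553 CPM in the chosen nuclei of cluster 4 and 1002 CPM in those of cluster 24. Nuclei of cluster 4 did not enter the comparisons with other neurons below, and those of cluster 24 were also left out as an alternative.

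**Figure D2:**
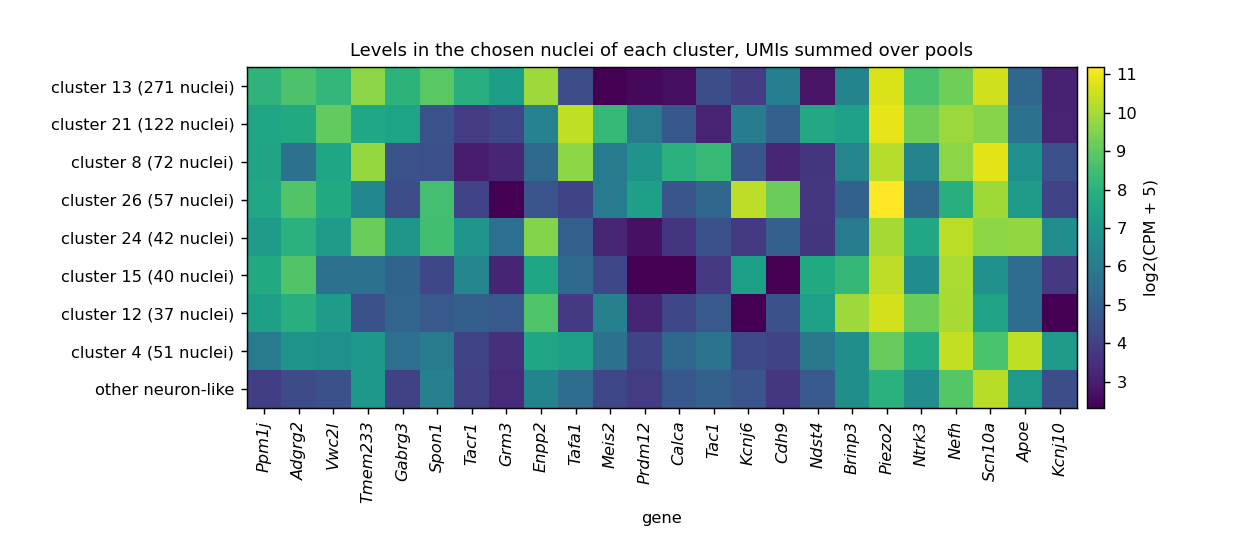
Levels of 24 genes, as log2(CPM + 5) on UMIs summed over pools, in the chosen nuclei of the 8 clusters that hold most of them and in other neuron-like nuclei. Gabrg3 is high in clusters 13, 21 and 24, Tafa1 in 21 and 8, Kcnj6 in 26 and Apoe in 24 and 4, while Piezo2 is above the other neuron-like nuclei in all 8.

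The mixture of clusters varied from pool to pool. Cluster 13 supplied from 19.6% of the chosen nuclei in FR1 to 54.5% in FL3, with a median of 40.9%, and was present in every pool. Cluster 21 supplied from 0% in ML2 and ML3 to 31.1% in FL2 and was present in 10 pools. Cluster 8 supplied 0% to 20% and cluster 26 0% to 11.6%, both with none in ML3. Levels over all chosen nuclei of a pool therefore carry this mixture, which was not adjusted for.

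**Figure D3:**
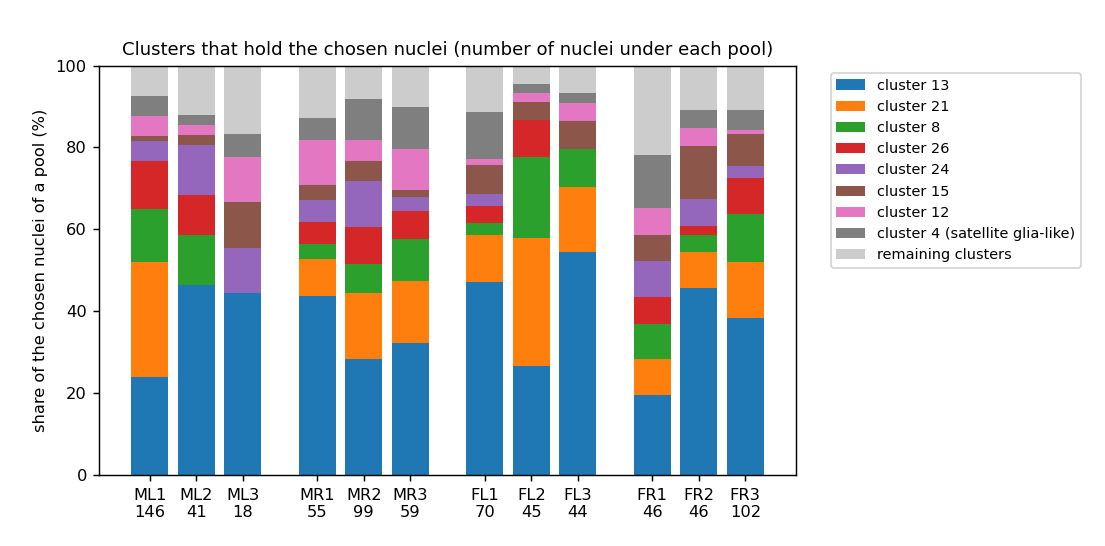
Share of the chosen nuclei of each pool that lay in each cluster, as stacked bars that sum to 100%, with the number of chosen nuclei under each pool. Cluster 13 takes 19.6% in FR1 and 54.5% in FL3, and cluster 21 is absent from ML2 and ML3.

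Levels of the rule genes and of the genes named with them were as follows in the 696 chosen nuclei of neuron-like clusters, over 12 pools. Ppm1j ranged from 109 to 238 CPM with a median of 201 CPM, against 5.32 to 18.2 CPM in other neuron-like nuclei. Adgrg2 ranged from 149 to 353 CPM with a median of 273 CPM, against 8.94 to 22.4 CPM. Vwc2l ranged from 174 to 350 CPM with a median of 239 CPM, against 9.43 to 31.6 CPM. For these genes no pool's chosen nuclei overlapped any pool's other nuclei, which the rule sets. Tmem233 ranged from 276 to 787 CPM, median 488 CPM, against 72.6 to 230 CPM, and was detected in 36.1% of chosen and 11.8% of other nuclei. Gabrg3 ranged from 50.7 to 238 CPM, median 132 CPM, against 4.63 to 18.8 CPM, and was detected in 37.6% and 3.21%. At 2000 UMIs per nucleus, Tmem233 was detected in 22.4% against 9.60% and Gabrg3 in 30% against 2.27%. Tmem233 and Gabrg3, each taken alone, thus had no UMI in most chosen nuclei.

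**Figure D4:**
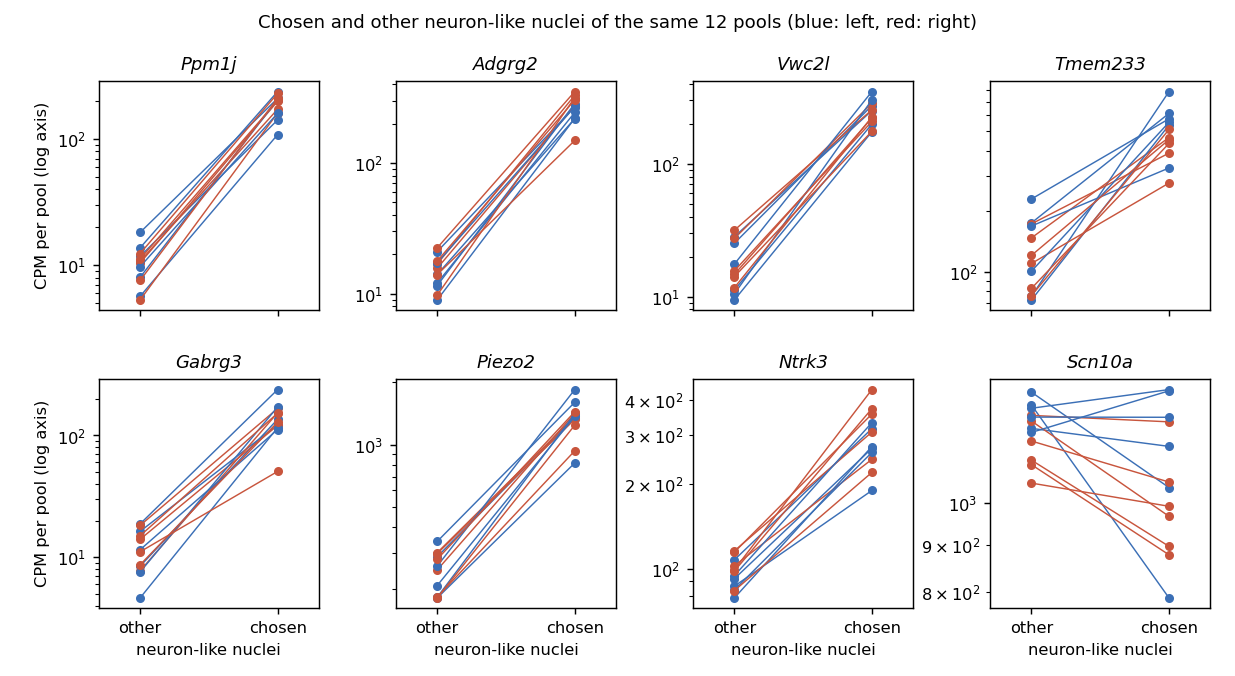
CPM on a log axis in the other and the chosen neuron-like nuclei of each of 12 pools, joined by lines, for 8 genes. Lines rise in 12 of 12 pools for all but Scn10a, whose level was higher in the chosen nuclei in 2 pools.

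Other genes were compared between the chosen and the other neuron-like nuclei of the same pools with edgeR's quasi-likelihood test, with the pool as a block. The 4 rule genes, Tmem233 and Gabrg3 were left out of the counts. At an adjusted p under 0.05 and a change of at least 2-fold, 789 of 11745 genes were called, or 6.72%. Of these, 417 were higher in the chosen nuclei (3.55% of genes tested) and 372 lower (3.17%). Counts of called genes from this test in the gene lists below are to be read beside these shares. The trio that chose the nuclei came from earlier results on the same nuclei, so these calls describe how the chosen nuclei differ and are no independent evidence of a type. The chosen nuclei were deeper. After thinning to 2000 UMIs, with the rule applied anew, 279 genes were higher and 723 lower of 8690. The median of all genes was then -0.23 on the log2 scale in place of -0.03. When all 3 rule genes were required, 357 were higher and 580 lower.

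The mechanosensitive channel Piezo2 was among the most abundant genes that differed. Its level per pool ranged from 815 to 1845 CPM, with a median of 1367 CPM, in chosen nuclei and from 181 to 340 CPM, with a median of 253 CPM, in the others. The groups did not overlap, and the log2 fold change was 2.47 ± 0.07 (SE, 12 pools). Piezo2 was detected in 92.5% of chosen nuclei against 26%, and at equal depth in 89.2% against 22.1%. Its level in the remaining nuclei of the satellite glia-like cluster 4 was 189 CPM. Remaining nuclei of other clusters had Piezo2 at 2486 CPM in cluster 26, 1792 CPM in cluster 21 and 1185 CPM in cluster 15. It stood at 883 CPM in those of cluster 12, 764 CPM in 13, 516 CPM in 8 and 133 CPM in 24. High Piezo2 was thus not particular to the chosen nuclei of clusters 26, 21 and 15. Among 10 genes of the mechanosensitive and acid-sensing channel list that were tested, Whrn, a scaffold protein of hair cell stereocilia, was also higher, at 1.03 ± 0.19 on the log2 scale. Tmc3 was lower at 106 against 342 CPM, and Tmem150c, reported as a component of mechanically activated currents, at 46.8 against 106 CPM. Asic2, the most abundant of the list, was not called, at 2702 against 2647 CPM.

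Skor2, a transcriptional corepressor known from Purkinje cells, had the largest increase that met the naming rule. It ranged from 22.0 to 55.2 CPM, median 35 CPM, in chosen nuclei and from 0.484 to 2.26 CPM in the others, with no overlap, a log2 fold change of 4.93 ± 0.23. Myo1a, a brush border myosin, followed at 4.18 ± 0.19 and Exoc1l at 3.59 ± 0.17. Grm3 stood at 65.1 CPM ± 26.4 against 5.74 ± 1.88 (SD, 12 pools), or 10.7-fold higher. Tacr1 stood at 119 CPM ± 68.1 against 11.1 ± 2.63, or 9.45-fold higher, and its lowest chosen pool, at 48.2 CPM, was above the highest other pool at 14 CPM. Enpp2 was 6.6-fold higher with a small error, 2.72 ± 0.07 on the log2 scale, at 495 CPM ± 90.3 against 73.7 ± 7.33.

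Among the remaining genes of the 20 largest increases were secreted and synaptic genes. Nptx1, a neuronal pentraxin that binds AMPA receptors, was 8.17-fold higher, Cadps2, a priming factor of dense-core vesicles, 6.63-fold, and Cdh9, a synaptic cadherin, 7.15-fold. Ptgfr, the prostaglandin F receptor, was 7.51-fold higher, Itga11, a collagen-binding integrin subunit, 7.18-fold, and Cacna1i, a T-type calcium channel, 6.41-fold. Tox3, a nuclear HMG-box protein, was 8.62-fold higher and Tesc, a calcium-binding protein, 6.52-fold. Tafa1 averaged 282 CPM ± 200 against 39.2 ± 24.7, the largest SD among these 20 genes, and its pools overlapped the other nuclei. Adam11, Col19a1 and Pla2g7 also overlapped, although each was higher in 12 of 12 pools, as the naming rule required.

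**Figure D5:**
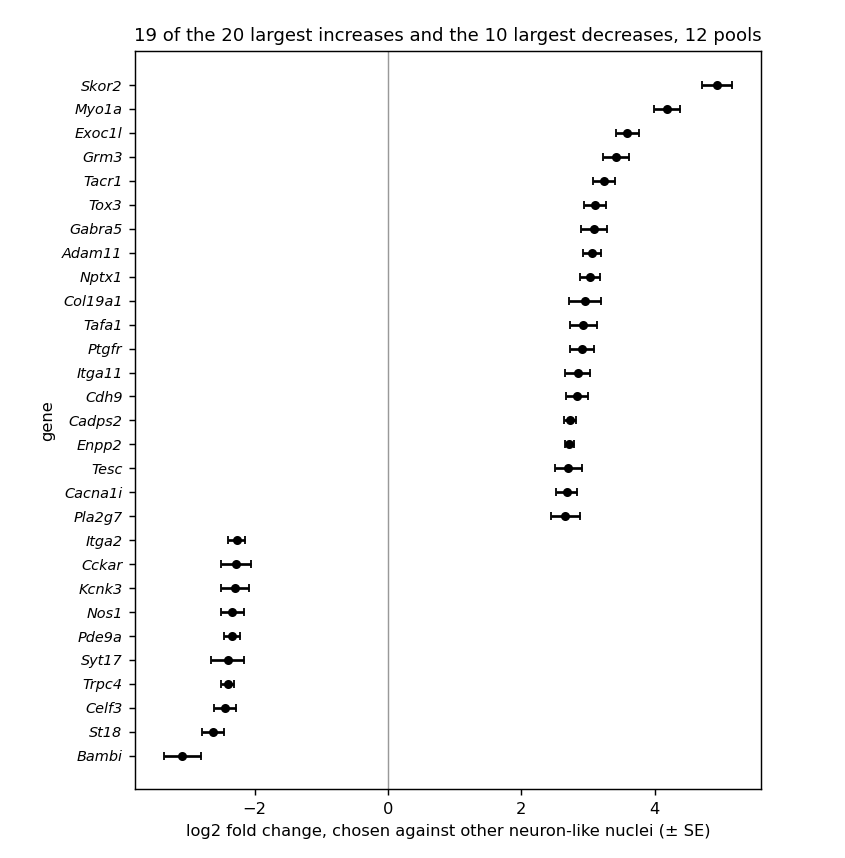
Log2 fold change and SE over 12 pools for 19 of the 20 largest increases and the 10 largest decreases that met the naming rule, chosen against other neuron-like nuclei. Skor2 at 4.93 and Bambi at -3.09 are the extremes.

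The largest decreases included genes of receptors, enzymes and ion channels. Bambi, a decoy receptor of the TGF-beta family, ranged from 0 to 9.05 CPM in chosen nuclei against 15.8 to 27.3 CPM in the others, or 8.49-fold lower. Trpc4, a receptor-operated cation channel, stood at 54.3 CPM ± 29.1 against 264 ± 23.3, or 5.29-fold lower. Nos1, the neuronal nitric oxide synthase, stood at 18.7 CPM ± 19.5 against 102 ± 12.8. Cckar, the receptor by which vagal neurons sense cholecystokinin, stood at 5.61 CPM ± 4.54 against 31.6 ± 9.40. Kcnk3, an acid-sensitive leak potassium channel, was 4.90-fold lower, and St18, Celf3, Syt17, Pde9a and Itga2 were 4.83-fold to 6.16-fold lower. Each of these 10 genes, picked for a large decrease, was lower in 12 of 12 pools, as the naming rule required. None of them overlapped.

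Most GABA receptor genes tested were higher. Of 12 subunits tested, 8 were higher and none lower, with a median log2 fold change of 1.60 against -0.03 for all genes tested, and after thinning 7 of 10 were higher and none lower. With all 3 rule genes required, 8 of 11 were higher and 1 lower. Gabra2 ranged from 161 to 376 CPM in chosen nuclei and from 31.9 to 81.4 CPM in the others, with no overlap, a log2 fold change of 2.48 ± 0.09. Its mean was 270 CPM ± 59.7 against 48.6 ± 14.7, and that of Gabra5 was 33.0 CPM ± 12 against 3.77 ± 0.687. Gabrb2 was 4.13-fold higher. Gabbr2, a subunit of the metabotropic GABA-B receptor, was the most abundant, at 695 CPM ± 135 against 201 ± 57.5. Gabrg1 and Gabra3 were also called.

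Voltage-gated channels changed in both directions. Of 32 genes of the voltage-gated potassium, KCNQ and HCN list tested, 9 were higher and 3 lower, and after thinning 8 of 28 were higher and 8 lower. Kcnd3, which carries a fast-inactivating potassium current, ranged from 495 to 1044 CPM in chosen nuclei against 116 to 209 CPM, with no overlap, or 4.92-fold higher. Kcna1, a low-threshold channel of axons, stood at 323 CPM ± 91.1 against 89.0 ± 17.9. Kcnc2, a fast delayed rectifier, was lower, at 117 ± 44.5 against 421 ± 22.3 CPM. Kcnab1, the most abundant of the list, was not called at 876 against 1108 CPM.

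Among 12 sodium channel genes 3 were higher, including Scn4b and Scn1a, and none was lower, and after thinning 2 were higher and 1 lower. Scn1a, the channel of fast-firing neurons, ranged from 286 to 447 CPM against 97.8 to 137 CPM, and Scn4b, a beta subunit linked to resurgent current, was 4.89-fold higher. Scn10a, the channel of many nociceptors, stood at 1075 CPM ± 181 against 1203 ± 80.5 and was higher in only 2 of 12 pools. Of 14 calcium channel subunits, Cacna1i was higher while Cacna1e, the R-type channel, was lower at 78.5 against 230 CPM and Cacnb2 was lower at 41.1 against 104 CPM. Of 9 two-pore potassium channels Kcnk1 was higher and Kcnk3, Kcnk9 and Kcnk13 were lower. Of 12 TRP channels none was higher and 5 were lower, among them Trpm3 at 1215 ± 144 against 2580 ± 190 CPM and the capsaicin receptor Trpv1 at 36.5 ± 11.6 against 86.5 ± 8.06 CPM. The TRP count after thinning was 6 lower of 12.

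Receptors for gut hormones and for cardiovascular and airway signals were more often lower than higher. Of 16 gut hormone and feeding peptide receptors tested, Calcrl and Cckbr were higher and 8 were lower, with a median of -0.96 on the log2 scale. Sctr, the secretin receptor, stood at 3.43 CPM ± 4.38 against 18.5 ± 5.41, Gpr35 at 8.83 ± 6.49 against 33.7 ± 3.97, and Npy2r, the receptor of peptide YY, at 1.36 ± 3.12 against 5.14 ± 1.3. Of 16 cardiovascular and airway receptors none was higher and 6 were lower. Agtr1a, the angiotensin receptor, was at 1.0 CPM against 6.49 CPM and Chrnb4, a nicotinic receptor subunit, at 12.2 against 36.2 CPM. Chrm2, the muscarinic receptor of that list with the highest level, was not called, at 132 ± 29.4 against 73.3 ± 10.4 CPM.

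Purinergic and serotonin receptors differed in both directions. Of 17 tested 7 were higher and 3 lower, beside 3.55% and 3.17% of all genes tested. P2ry1, a G protein-coupled receptor for ADP, was 6.24-fold higher, at 39.5 CPM ± 14.9 against 6.49 ± 1.34, and the adenosine receptor Adora2a was 3.94-fold higher. The serotonin receptor Htr7 was 3.90-fold higher from low levels, 8.61 against 2.41 CPM. P2rx6, Htr4, Htr1b and P2ry2 were the other genes called higher. Htr3a, Htr3b and P2rx2, which encode ligand-gated channels, were lower, Htr3a at 46.9 ± 29.9 against 122 ± 20.1 CPM. After thinning only 9 genes of the list were tested, of which 1 was higher and 3 lower.

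Several markers of the nodose lineage were lower and some of the jugular lineage higher. Of 8 nodose markers tested, none was higher and Htr3a, Htr3b, Gpr65, P2rx2 and Cysltr2 were lower. P2rx3, the ATP-gated channel of visceral afferents, was not called at 352 against 268 CPM, and its detection at equal depth was 35.6% against 34.9%. Of 6 jugular markers tested, Drgx, Prdm12 and Tac1 were higher. Drgx, a homeodomain factor of nociceptor development, ranged from 29.3 to 83.0 CPM in chosen nuclei against 4.65 to 17.6 CPM. Prdm12 averaged 26.9 CPM ± 17.8 against 9.73 ± 7.03, but among the chosen nuclei it lay at 0.646 CPM in cluster 13, with 57.9, 116 and 156 CPM in clusters 21, 8 and 26. After thinning, 1 jugular marker was higher and 2 were lower, and the difference of Tac1 was -1.36 in place of 1.02 on the log2 scale.

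Transcription factors, transmitter genes and their receptors differed in both directions. Of 21 transcription factors Casz1, Meis2, Prdm12, Satb1 and Pou4f1 were higher and Tbx3 lower, with Meis2 at 53.0 ± 37.0 against 13.3 ± 5.14 CPM and Tbx3 at 20.2 ± 11.7 against 80.4 ± 9.83 CPM. Of 5 Hox genes tested 1, Hoxc4, was lower. Ntrk3 ranged from 190 to 436 CPM against 78.6 to 116 CPM with no overlap, and was the only called gene of 7 neurotrophin and GDNF family receptors. The mu opioid receptor Oprm1 stood at 227 CPM ± 64.2 against 694 ± 77.4, whereas the delta receptor Oprd1 was higher at 7.12 against 2.40 CPM. Slc17a7, a vesicular glutamate transporter, was 4.54-fold higher at 22.2 against 5.27 CPM, while the more abundant Slc17a6 was not called at 160 against 264 CPM. Of 8 neuropeptides tested Tac1 was higher and Adcyap1, Cartpt and Edn3 were lower.

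Genes of the same families as the rule genes were looked at in turn. Of 14 PPM phosphatases tested besides Ppm1j, 1 was called, Ppm1e at 98.4 ± 21.6 against 31.2 ± 4.39 CPM. Of 19 adhesion G protein-coupled receptors besides Adgrg2, 1 was called, Adgrb2 at 27.3 ± 14.3 against 11.4 ± 1.93 CPM. Both counts of 1 are near the 6.72% called over all genes. Vwc2, the nearest relative of Vwc2l, was called higher on the list of glutamate receptors and their partners, with Grid1, Cacng2 and Cacng5 among the 5 called higher, and 2 of these 25 genes, Shisa7 and Shisa9, were lower. Of 6 dispanin genes besides Tmem233, Syndig1 was higher at 54.7 ± 21 against 20 ± 4.78 CPM and Syndig1l at 12.9 against 5.07 CPM. Of 36 synaptic adhesion and guidance genes 5 were higher and 3 lower, beside 3.55% and 3.17% of all genes tested. Cntn1, a contactin of axons, ranged from 948 to 1507 CPM against 177 to 303 CPM, and Cntn5, another contactin, stood at 1075 ± 389 against 2344 ± 293 CPM. No neurofilament gene of 5 and no immediate early or injury response gene of 4 was called. After thinning, 2 of 5 neurofilament genes and 1 of 2 immediate early or injury response genes were lower. Nefh was 896 ± 210 against 457 ± 49.7 CPM. It was detected in 66.7% against 46.3% of nuclei, and after thinning, with the rule applied anew, in 41.6% against 37.8%.

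Markers of other cells were present on both sides. The 8 satellite glia markers summed to 90 to 763 CPM, median 408 CPM, in chosen nuclei against 210 to 355 CPM, median 274 CPM, and were higher in 9 of 12 pools, with no marker called of 7 tested. Fibroblast markers summed to 42.2 to 181 CPM against 78.8 to 189 CPM, with Pdgfra called higher. Mural cell markers summed to 45.0 to 156 CPM against 40.6 to 64.2 CPM, with Rgs5 called higher, and macrophage markers to 3.61 to 18.3 CPM against 5.81 to 13.1 CPM. Myelinating Schwann cell markers summed to 391 to 602 CPM against 371 to 549 CPM, endothelial markers to 14.4 to 72.4 CPM against 22.4 to 38.8 CPM, and muscle markers to 163 to 1508 CPM against 139 to 1174 CPM. None of 4 myelinating Schwann, 4 endothelial and 5 muscle markers tested was called. The 6 markers of non-myelinating Schwann cells summed to 2903 to 4112 CPM against 3746 to 4435 CPM, and Ncam1 of these was lower at 478 against 1015 CPM. Neuron markers summed to 11001 to 16075 CPM against 9799 to 12011 CPM, and 1 of 12, Rbfox3, was called higher. After thinning 1 neuron marker was higher and 3 were lower, with a median log2 fold change of -0.63, and with all 3 rule genes required none was higher and 1 was lower. Sympathetic markers summed to 54.2 to 97.5 CPM against 48.4 to 74.4 CPM, with Ddc lower and Slc6a2 and Hand2 at 0. Aif1 of the macrophage list was also at 0, and the part of these cells in any gene above was not tested.

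Among 13 other sets of nuclei, each chosen by 2 or more of its own label genes, the nuclei with Brinp3, Pappa2 and Galnt14 were the most like. Over 12870 genes their log2(CPM + 5) correlated with that of the chosen nuclei at r = 0.983 across genes, as a description of likeness, and the nuclei of Pcdh15, Ndst4 and Dok5 came next at 0.976. Against the 1957 nuclei of the Brinp3 set, 185 of 7250 genes were called, or 2.55%, of which 112 were higher (1.54%) and 73 lower (1.01%) in the chosen nuclei. Pde1c, a calmodulin-dependent phosphodiesterase, ranged from 1123 to 1768 CPM against 177 to 382 CPM, or 6.5-fold higher. Skor2 was 18.7-fold, Tmem72 6.66-fold, Kcnd3 4.82-fold, Ccdc141 4.73-fold and Tacr1 4.22-fold higher. Glp1r, the receptor of glucagon-like peptide 1, ranged from 0 to 27.2 CPM against 28.1 to 80.1 CPM, or 5.51-fold lower, and Nox4, an NADPH oxidase, was 6.6-fold lower. Of 10 GABA receptor subunits 4 were higher and none lower, and of 36 adhesion and guidance genes 2 were higher and 8 lower.

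The nuclei excluded by Pcdh15 alone were also compared. There were 112 nuclei with 2 or 3 rule genes and 2 or more UMIs of Pcdh15, 103 of them neuron-like, and 5 pools (ML1, MR1, MR2, FR1 and FR3) had at least 10. There 240 of 4405 genes were called, or 5.45%, of which 119 were higher (2.7%) and 121 lower (2.75%) in the nuclei kept by the rule. Nxph1, a neurexophilin, stood at 37.9 CPM ± 14.9 in kept nuclei against 390 ± 137 (SD, 5 pools), or 9.73-fold lower, and Unc5d, a netrin receptor, at 104 ± 41.7 against 749 ± 203. Spp1, which encodes osteopontin, was 9.73-fold lower, Actn2 9.91-fold lower and the calcium-activated chloride channel Ano1 7.92-fold lower. Marchf1 was higher at 383 CPM ± 105 against 91.5 ± 49.4, Mdfic2 was 8.77-fold and St6galnac5 7.83-fold higher. Scn11a, a persistent sodium channel of nociceptors, was higher at 481 ± 78.1 against 113 ± 167 CPM, and Scn9a and Scn10a were higher with it among 11 sodium channels. Of 8 GABA receptor subunits tested there, Gabbr2 was higher in the kept nuclei and Gabrg1 and Gabrb2 were lower. Piezo2 was not called in this comparison. Over all neuron-like nuclei with 2 or 3 rule genes it stood at 1429 CPM with 0 UMIs of Pcdh15, 1266 CPM with 1 UMI and 1090 CPM in the excluded nuclei.

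No gene passed the main test between left and right or between the labelled sexes within the 771 chosen nuclei, but some alternatives called genes. Of 6750 genes, 0 were called by side (0.0%) by edgeR with Benjamini-Hochberg adjustment, where 418 genes had an unadjusted p under 0.05, and DESeq2 also called 0. By labelled sex 0 were called (0.0%), with 374 genes under an unadjusted p of 0.05, and 0 with DESeq2. Without ML1 and FL1, whose Y-linked transcripts went against their labels, 6 genes were called by labelled sex and 5 by side. In neuron-like chosen nuclei only the counts were 8 and 4, and with all 3 rule genes required 48 and 2. The main counts of 0 therefore do not show that the sexes or sides are alike. The smallest p by side belonged to Zfp536, a zinc finger factor of neural differentiation. It ranged from 260 to 306 CPM, median 294 CPM, in left pools and from 373 to 504 CPM, median 397 CPM, in right pools. Every right pool was above every left one, but the gene was picked for the smallest p of 6750, so this separation is only a description. Its log2 fold change was 0.48 ± 0.10 with an edgeR adjusted p of 0.44. Over the neuron-like chosen nuclei alone the adjusted p of Zfp536 from edgeR was 0.0186. Crtac1, a secreted extracellular matrix protein, had the smallest p by sex, at 63.7 CPM ± 20.6 in pools labelled male and 105 ± 17.2 in pools labelled female (edgeR adjusted p = 0.845). Tmem233 in all chosen nuclei averaged 507 CPM ± 120 in left and 379 ± 72.5 in right pools, with overlap (edgeR adjusted p = 0.708), and the 3 rule genes and Gabrg3 overlapped between sides and between sexes.

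Whether left and right differed more in the chosen nuclei than in other neurons was tested by the interaction of side with being chosen. It was called for 8 of 11745 genes, or 0.0681%, and 625 genes had an unadjusted p under 0.05, while DESeq2 called none. Leaving out 1 pool at a time gave 2 to 11 calls, the fewest without FL2. Apoe ranged from 42.2 to 253 CPM on the left and from 198 to 444 CPM on the right in chosen nuclei, and from 98.1 to 160 and 97.9 to 184 CPM in the others. Its difference of side differences was 1.11 ± 0.18 on the log2 scale. Sparc, a matricellular protein also made by glia, went the same way at 1.10 ± 0.19. The summed satellite glia markers moved with these genes, with a median of 258 CPM in left and 525 CPM in right chosen nuclei against 255 and 291 CPM in the others, and their part in the result was not tested. Calca averaged 22.9 CPM ± 23.1 in left and 51.2 ± 31.7 in right pools, against 27 ± 25.1 and 16.1 ± 3.36 in the others. The interaction was positive also for Itgb4 (0.96 ± 0.20), Pde7b (0.78 ± 0.17) and Fgf13 (0.57 ± 0.12). Sorl1, a sorting receptor, was lower on the right in chosen nuclei, at 132 ± 24.8 against 211 ± 73.7 CPM, and Pde1c had an interaction of -0.52 ± 0.11, with left and right means of 1538 and 1424 CPM in chosen nuclei and 224 and 294 CPM in the others.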

How the data were processed

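Single-nucleus RNA was counted per nucleus and gene. The deposited matrix holds raw UMI counts with no normalisation, and its sums equalled the deposited transcript counts in 36741 of 36741 nuclei. Per the submitters' processing notes, the build was mRatBN7.2 and R 4.3.2 and Seurat 4.1.3 were used. Neither an aligner nor a barcode filter is named by the sources used here. Pools, sexes and sides come from the names in the deposited nucleus table, and female pools, numbered after the male ones there, are renumbered from 1 here.

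The members and all gene lists were chosen with earlier results of these data known. Nuclei were clustered with scanpy 1.11.5 and leidenalg 0.10.2 (Python 3.11.15) without the 4 rule genes. The first naming rule for neurons, against all remaining nuclei, named 4 clusters, and was replaced after this was seen. A cluster is now neuron-like with at least 3 neuron markers 1.5-fold above non-neuronal nuclei. It was left out where another class had at least 3 markers 2-fold up and more than the neuron lists together. UMIs were summed per pool and tested with edgeR 4.0.16 (R 4.3.3, TMM, filterByExpr, Benjamini-Hochberg), with DESeq2 1.42.0 as an alternative. SEs were derived from the F statistic. CPM are UMIs scaled to a sum of 1e6. The script was tested on simulated counts. Pools with under 10 nuclei of a part were left out of that comparison. Named genes were the 20 largest increases and 10 largest decreases with a mean of at least 20 CPM and the same direction in all 12 pools, 8 each way in the 2 other comparisons, and up to 4 called genes and the most abundant gene of each list. The p-values cover the spread between pools.
A few genes that these rules would name are not reported here.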

Additional observations from a re-analysis of the deposited data

Results flagged for a closer look

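In 56 groups of pools looked at, 3 held a pool far from the others, and chance flags about 1 in 20 such groups. The chosen nuclei were 1.86% of neuron-like nuclei in FR2, where the other right pools had 2.77% to 2.92%. ML3, with 18 chosen nuclei, stood apart from the other pools labelled male in Piezo2, at 815 CPM against 1325 to 1602 CPM, and in Nefh, at 1394 CPM against 793 to 949 CPM.

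The side difference of 8 genes differed between chosen and other neuron-like nuclei by the interaction term of edgeR's quasi-likelihood test. These differences were 1.11 for Apoe, 1.10 for Sparc, 0.96 for Itgb4, 1.59 for Calca, 0.78 for Pde7b and 0.57 for Fgf13, and -0.52 for Pde1c and -0.80 for Sorl1, on the log2 scale. The edgeR adjusted p ran from 0.0022 for Apoe to 0.043 for Fgf13.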

How the results depend on the processing

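The direction of the share difference was not stable. By side it was 0.0667 points after thinning and 0.368 without ML1 and FL1, and it ran from -0.678 to 0.194 when 1 pool was left out. By labelled sex it was 0.0254 with all 3 rule genes required and 0.213 without ML1 and FL1, and it ran from -0.568 to 0.304 when 1 pool was left out. No exact permutation p passed under any of these.

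Counts of called genes by side were 26 with no filter on low counts, 4 in neuron-like chosen nuclei only, 2 with all 3 rule genes, 5 without ML1 and FL1, and 0 to 1 when 1 pool was left out. By labelled sex they were 25, 8, 48 and 6 in the same order, and 0 to 7 when 1 pool was left out. A replicate block by pool number called 0 genes by side. Deviations of same-numbered left and right pools from their group means correlated at -0.065 to 0.0851, which cannot show whether they share rats.

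Against other neuron-like nuclei the count was 783 to 822 when 1 pool was left out, 772 by DESeq2 and 822 without cluster 24. With no filter it was 1129. Against the Brinp3 set the count was 394 with no filter, 115 after thinning (11 pools) and 293 with all 3 rule genes (6 pools). Against the nuclei excluded by Pcdh15 it was 390 with no filter and 200 to 307 when 1 pool was left out, and the thinned version was not run because too few pools had enough nuclei. The interaction called 0 genes by DESeq2 and 18 with no filter, and 2 to 11 when 1 pool was left out, the fewest without FL2. Its count was 3 without FL1, FL3 or FR1 and 4 without MR2, MR3 or FR3. The cause of these changes was not tested.

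Some log2 fold changes against other neuron-like nuclei turned. After thinning they were -1.36 for Tac1, -0.50 for Pmp22, -0.16 for Col3a1, -0.18 for Adgrb3, -0.31 for Nefm, -0.24 for Apoe, -1.45 for Vwf, -0.054 for Trarg1 and -0.014 for Asic2. With all 3 rule genes they were -1.04 for Tac1, -0.20 for Grik1, -0.032 for Pmp22, -0.12 for Cacna2d3 and -0.54 for Asic2. Without cluster 24 they were 0.036 for Cntnap2, -0.093 for Adgrb3 and -0.056 for Apoe. Asic2 was at -0.044 with no filter and from -0.014 to 0.11 when 1 pool was left out. The number of chosen nuclei per pool, 18 in ML3, limits the precision of side and sex results.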
